A study of Mus musculus with 2 samples.

Results

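Transcripts of 10 mouse genes of epithelial defence were followed in sorted cells of small-intestinal organoids. The genes encode the secreted lectins Reg1, Reg3a, Reg3b and Reg3g, the surface protein Lypd8, the immunoglobulin receptor Pigr, the siderophore-binding protein Lcn2, the oxidase Duox2 with its maturation factor Duoxa2, and the nitric oxide synthase Nos2. They were listed by symbol as inducible defence genes outside the defensins. The rule uses no FPKM value, but it uses the estimate status of Reg4 and was written with earlier results of these data known. The members are 10 of 23793 gene rows and of 23532 symbols estimated in both libraries. Reg4, a further lectin of the family, was left out because Cuffdiff gave no estimate for it in the GFP+ library. The counts and medians below therefore do not cover Reg4, and no difference can be computed for it. Its locus held too many fragments for an estimate in GFP+ but not in GFP-, where it was at 419 FPKM. The enteroendocrine genes Chga and Chgb had the same status in GFP+. Summaries of the group that included Reg4 could differ from those below.

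The organoids are epithelial cultures grown in Matrigel from crypts of ChgA-GFP mice, in which green fluorescent protein (GFP) reports chromogranin A, a granule protein of enteroendocrine cells. The medium held epidermal growth factor, noggin and R-spondin, and the labels' protocols name no cytokine and no microbial treatment. Both groups come from the strain ChgA-GFP and, by their labels, differ only by the sort: the GFP+ library holds the roughly 1% of cells with fluorescence and the GFP- library holds the epithelial cells left after it. The sources used here do not give the age of the mice or the number of animals or cultures behind each library. With 1 library per group there is no replicate check, no error over replicates and no p-value, and every difference below describes these 2 libraries.

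REG proteins are small secreted C-type lectins. Reg3b and Reg3g bind and kill bacteria at the gut surface, and their genes are known to be switched on by interleukin-22 through STAT3 and by microbial signals through MyD88. Lypd8 sits on the cell membrane and binds flagellated bacteria, Pigr carries dimeric immunoglobulin A across the epithelium into the lumen, and Lcn2 withholds iron by binding bacterial siderophores. Duox2 makes hydrogen peroxide at the apical membrane once Duoxa2 has brought it out of the endoplasmic reticulum, and Nos2 makes nitric oxide from arginine.

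The stretches before the transcription starts of 4 Reg genes and of Duoxa2 are shown because all 5 hold TATAAA at nearly the same distance from the start, and because they set Reg2, which was listed at 0, beside its abundant neighbour Reg1. The RefSeq promoter set used here (GRCm38.p6, the mm10 assembly) has an entry for 9 of the 10 genes. It has none for Nos2, whose promoter was not searched. Each stretch begins 140 bases before the start and ends with its TATAAA, so that transcribed bases of the listed start are left out. Capitals mark TATAAA and, in Reg3b, the letters that match TTCNNNGAA. The stretches lie at chr6:78425843-78425958 (Reg1, plus strand), chr6:78405015-78405130 (Reg2, plus), chr6:78370745-78370861 (Reg3b, plus), chr6:78468896-78469014 (Reg3g, minus) and chr2:122298760-122298875 (Duoxa2, plus).
Reg1: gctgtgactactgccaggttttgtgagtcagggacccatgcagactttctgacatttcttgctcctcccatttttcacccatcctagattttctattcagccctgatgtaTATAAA
Reg2: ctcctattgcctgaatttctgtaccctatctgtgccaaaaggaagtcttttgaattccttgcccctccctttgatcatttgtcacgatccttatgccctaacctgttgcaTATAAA
Reg3b: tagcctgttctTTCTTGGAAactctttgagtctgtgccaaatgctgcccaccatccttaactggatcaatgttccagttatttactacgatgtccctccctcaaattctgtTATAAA
Reg3g: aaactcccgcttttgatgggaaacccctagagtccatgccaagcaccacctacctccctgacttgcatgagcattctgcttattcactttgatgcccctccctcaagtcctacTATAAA
Duoxa2: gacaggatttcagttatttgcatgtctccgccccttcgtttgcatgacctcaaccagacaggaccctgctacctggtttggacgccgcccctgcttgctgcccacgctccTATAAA

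TATAAA on the gene's strand, starting 40 to 20 bases before the start, was found in 4 of the 9 genes with an entry. It begins at -30 in Reg1 and Duoxa2, at -29 in Reg3b and at -27 in Reg3g, counted from -1 at the base before the start. Of all 32817 listed promoters of the same length, 2.00% hold it. Reg2, which is not among the 10 genes, also has it at -30. TTCNNNGAA, the letters of the motif that STAT factors bind (its reverse complement reads the same), occurs in the windows of 2 genes, from 250 bases before to 50 bases after the start, at -129 in Reg3b and at 40 after the start in Pigr. The share over all promoters is 8.29%. The kappaB motif, searched on both strands, is in the window of 1 gene, Reg3g, against 8.46% of all promoters. These matches describe letters and say nothing of binding.

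The last 60 bases before the start of Reg3b have a close counterpart in Reg3g, where 50 of 58 aligned bases match (86.2%) at the same distance from the start. In Reg3a 43 of 54 aligned bases match (79.6%), but they lie from 8 bases before to 46 bases after the listed start, so the stretch is shifted there, and no TATAAA was found in the searched window of Reg3a. In Reg1 no more than 25 bases aligned, and they lie farther upstream, from -192 to -168.

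In both libraries the 10 genes fell into 3 tiers, which the plot of levels shows. FPKM counts fragments per kilobase and per unit of library size, so that levels can be compared between genes of different length. Reg1, Lypd8 and Pigr were at 261 to 1510 FPKM, the 3 Reg3 genes at 36.7 to 126 FPKM, and Lcn2, Duox2, Duoxa2 and Nos2 at 0.0268 to 1.82 FPKM. No gene left its tier between the libraries. Of all estimated FPKM the 10 genes held 0.504% among GFP- cells and 0.418% among GFP+ cells.

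**Figure D1:**
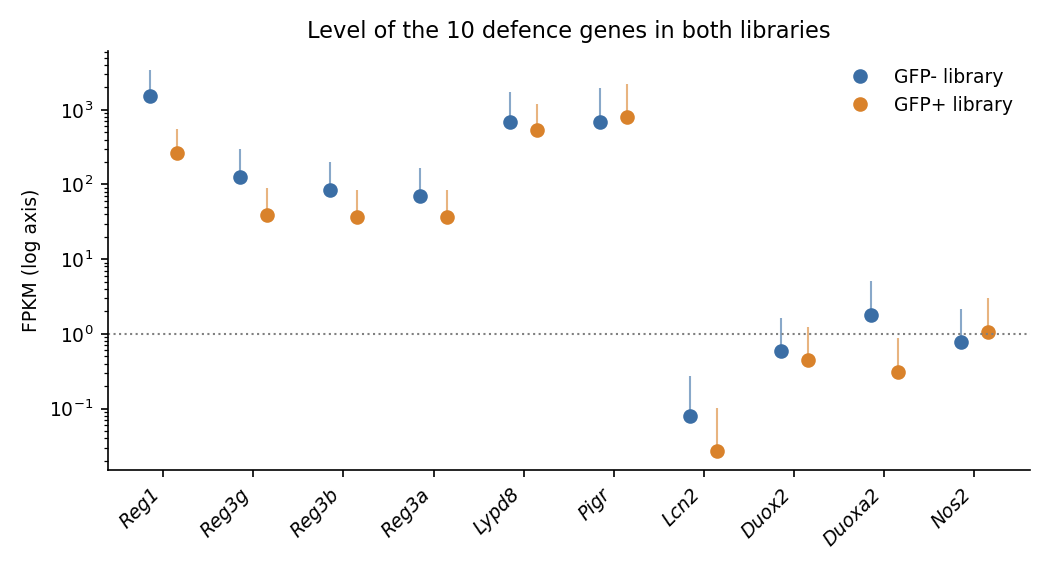
FPKM of the 10 genes (log axis) in the GFP- (blue) and GFP+ (orange) library, 1 point per library, with lines up to the deposited upper confidence bound (the lower bounds are 0 and cannot be drawn). The dotted line marks 1 FPKM. Reg1 has the widest gap among the 6 genes above 10 FPKM, 1510 against 261, whereas the points of Lypd8 and Pigr lie close together.

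For all 10 genes the authors' confidence bounds overlapped between the libraries. The lower bound was 0 in both libraries for each of them, and the upper bound was 2.15 to 3.83 times the FPKM. Since the lower bound is 0 in every GFP+ row and in all but 1 GFP- row of the files, overlap is given for nearly any gene and says nothing of these 10. Differences were described by size instead, as log2((FPKM + 1) in GFP+ / (FPKM + 1) in GFP-), with 4-fold (2 on this scale) as the rule and at least 1 FPKM in the higher library as the filter. The filter kept 8 of the 10 genes. Duoxa2 passed it only through the GFP- library and Nos2 only through the GFP+ library, which fixes the sign of their differences.

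By that rule 1 of the 8 compared genes, Reg1, was lower in the GFP+ library, and 0 were higher. Over all 11868 compared genes 545 were lower, which is 4.59%, and 841 were higher, which is 7.09%. Of all 10 genes, 8 had a lower FPKM in GFP+ and 2 a higher one, Pigr and Nos2. Lower values were common: 51.4% of all compared genes had a difference below that of Lcn2 (-0.07). Among the genes with a lower FPKM, Lypd8 and Duox2 changed direction under the other scalings described below, and Lcn2 rested on a few fragments. The median log2 difference was -1.01 over the 8 compared genes and -0.64 over all 10, against -0.12 over all compared genes. Among the 5563 genes that reached 10 FPKM in each library, the group to which Reg1, the Reg3 genes, Lypd8 and Pigr belong, the median log2 ratio was -0.50. The library scaling therefore matters for the small differences below. It was varied by setting this median to 0 or by giving both libraries one total FPKM (the GFP+ values multiplied to reach the GFP- total, without the 5 loci that had no GFP+ estimate). These scalings moved the median of all compared genes to 0.35 and 0.46 and the shares of higher and lower genes to 10.8% and 1.51%, and to 11.8% and 1.09%.

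**Figure D2:**
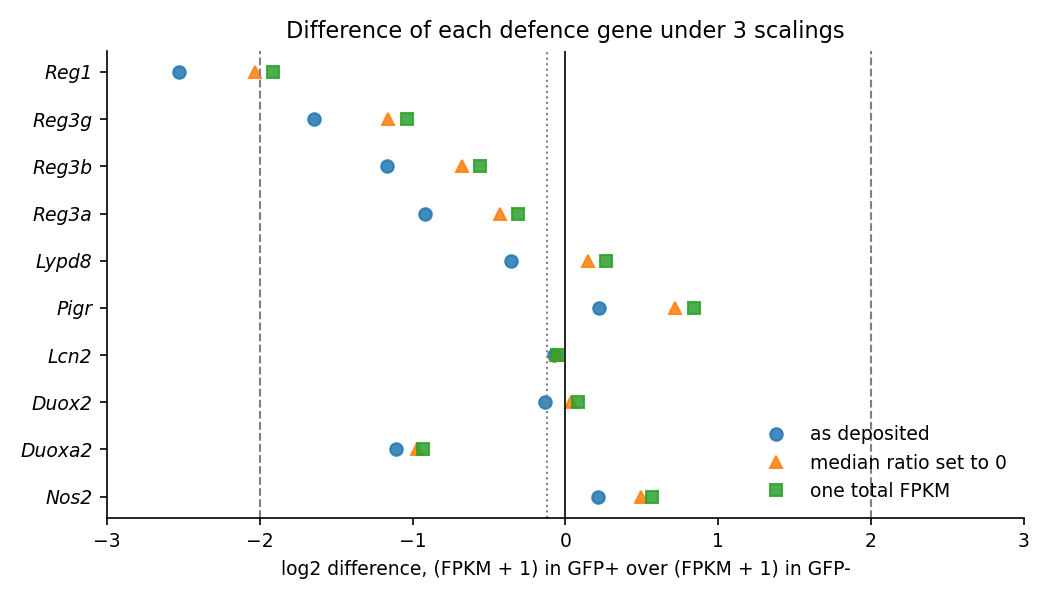
Log2 difference of each gene, (FPKM + 1) in GFP+ over (FPKM + 1) in GFP-, as deposited (circles), with the median ratio set to 0 (triangles) and with one total FPKM (squares). Dashed lines mark 4-fold and the dotted line the median of all compared genes, -0.12. Reg1 is beyond the 4-fold line in the deposited values (-2.53) and with the median ratio set to 0 (-2.03) but not with one total (-1.91), and the points of Lypd8 and Duox2 lie on both sides of 0.

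Reg1, a lectin first known from the pancreas, was the most abundant of the 10 genes in the GFP- library, at 1510 FPKM (upper bound 3427), and was at 261 FPKM (upper bound 559) in the GFP+ library. Its level in GFP+ was 17.3% of that in GFP-, 5.80-fold lower. It ranked 36 of 23532 symbols in GFP- and 190 in GFP+, so it stayed among the abundant transcripts of both fractions. The log2 difference was -2.53, and 151 of the compared genes (1.27%) had a lower one. Reg1 lies on chromosome 6 at 78425983 to 78428666 (mm10, plus strand, a protein-coding gene; positions here and below are the loci of the files, counted from 1).

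Among all 23520 symbols estimated without a warning in both libraries, the 3 nearest to Reg1 in level were Aldh1b1, a mitochondrial aldehyde dehydrogenase, Rpl32, a ribosomal protein, and Prap1, a secreted acidic protein. Aldh1b1 was at 1672 FPKM in GFP- cells and 251 FPKM in GFP+ cells (a distance of 0.16 in log2 units over the 2 libraries). Rpl32 was at 1399 and 227 FPKM (0.23) and Prap1 at 1257 and 261 FPKM (0.26). Likeness over 2 values says no more than that the levels are close.

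The Reg3 lectins were below Reg1 in both libraries and closer to each other. Reg3g, which acts on Gram-positive bacteria, was at 126 FPKM in GFP- cells (upper bound 301) and 39.4 FPKM in GFP+ cells (upper bound 89.2), a log2 difference of -1.65. Reg3b, its close relative, was at 84.3 FPKM (upper bound 199) and 37.0 FPKM (upper bound 84.2), with -1.17. Reg3a was at 70.2 FPKM (upper bound 166) and 36.7 FPKM (upper bound 83.4), with -0.92. None of the 3 met the 4-fold rule, and Reg3b and Reg3g were past 2-fold. Shares of 8.99%, 18.6% and 25.3% of the compared genes had lower differences than Reg3g, Reg3b and Reg3a.

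The order Reg3g, Reg3b, Reg3a was that of the GFP- level and of the difference alike. In GFP- the highest of the 3 was 1.79 times the lowest, and in GFP+ the 3 were within 1.08 times of each other. With lower bounds of 0 the deposited bounds cannot rank these genes. The summed level of the 3 genes was 280 FPKM in GFP- cells and 113 FPKM in GFP+ cells, 2.48-fold apart. Reg1 was 5.39 times this sum in GFP- and 2.30 times in GFP+.

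Reg3b, Reg3d, Reg3a, Reg2, Reg1 and Reg3g follow each other in this order within 98.0 kb of chromosome 6, and Reg3d and Reg3g lie on the minus strand. Reg3b spans 78370885 to 78373466, Reg3a 78380709 to 78383839 and Reg3g 78466268 to 78468874. The plot of the cluster shows that direct neighbours differed widely in level. Reg2, between Reg3a and Reg1, was listed at 0 in both libraries, which allows up to about 0.0729 FPKM in GFP- cells and 0.0719 FPKM in GFP+ cells (3 fragments, counting error only). Reg3d, between Reg3b and Reg3a, was at 0.490 and 0.183 FPKM. The 6 genes summed to 1791 FPKM in GFP- cells and 374 FPKM in GFP+ cells, of which Reg1 made up 84.3% and 69.7%.

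**Figure D3:**
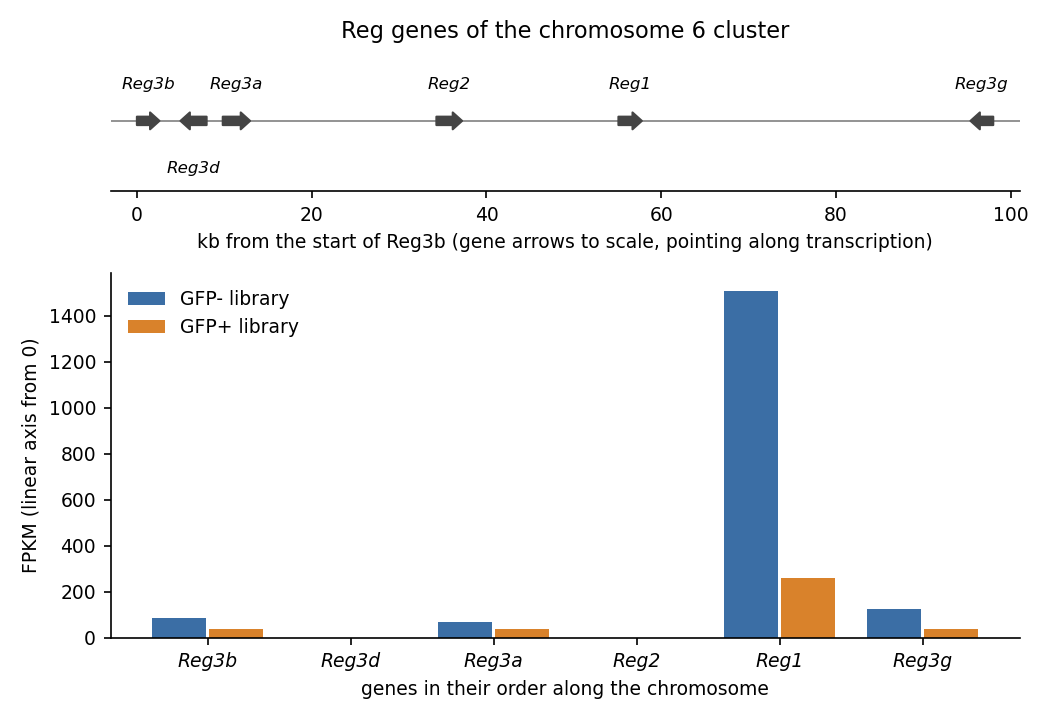
Top, the 6 Reg genes of the cluster to scale, in kb from the start of Reg3b, with arrows along transcription. Bottom, FPKM of each gene (linear axis) in the GFP- (blue) and GFP+ (orange) library: Reg1 rises above all others in both, at 1510 and 261 FPKM, the Reg3b, Reg3a and Reg3g bars are between 36.7 and 126 FPKM, and Reg3d and Reg2 have no visible bar.

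Reg1 and Reg2 are the closest pair of the cluster in coding sequence, 82.6% identical over 495 aligned bases, and share the TATAAA at the same position in the stretches printed above. Their levels were nonetheless the farthest apart of the 6 genes. Reg3b and Reg3g share 76.4% of aligned coding bases, Reg3b and Reg3a 73.5%, and Reg3a and Reg3g 72.8%, while Reg1 shares 58.7% to 62.2% with these 3. No stretch of 50 bases in the longest transcript models is the same in any pair of Reg genes, nor shared by Reg1, Reg3a, Reg3b or Reg3g with any other gene, so reads of that length without mismatches would separate them. Reg4, on another chromosome, was at 419 FPKM in GFP-, below Reg1 and above the Reg3 genes, and had too many fragments for an estimate in GFP+.

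Lypd8 and Pigr, the gene of a surface barrier protein and that of the immunoglobulin transporter, were abundant in both libraries and differed little. Lypd8 (chromosome 11, 58379032 to 58390541, plus strand) was at 686 FPKM in GFP- cells (upper bound 1736) and 536 FPKM in GFP+ cells (upper bound 1180). Its log2 difference was -0.35 as deposited and 0.15 and 0.27 under the 2 other scalings, so its direction is set by the scaling. Pigr (chromosome 1, 130826684 to 130852249, plus strand) was at 678 FPKM in GFP- cells (upper bound 1938) and 789 FPKM in GFP+ cells (upper bound 2228), a difference of 0.22 that became 0.72 and 0.84 under those scalings.

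Pigr was the most abundant of the 10 genes in GFP+, where it ranked 30 of 23532 symbols, up from 106 in GFP-. Lypd8 ranked 59 in GFP+ and 102 in GFP-. Among GFP- cells Reg1 was 2.23 times Pigr, and among GFP+ cells Pigr was 3.03 times Reg1. The order of the top 3 genes was thus turned over, from Reg1, Lypd8, Pigr to Pigr, Lypd8, Reg1. The 3 symbols nearest to Pigr in level were Anxa4, a calcium-dependent membrane-binding protein, at 790 and 667 FPKM in GFP- and GFP+ (distance 0.33), the linker histone H1f0 at 898 and 697 FPKM (0.44), and the membrane protein Tm4sf5 at 493 and 811 FPKM (0.46).

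Lcn2 was close to the limit of detection. It was at 0.0808 FPKM in GFP- cells (upper bound 0.275) and 0.0268 FPKM in GFP+ cells (upper bound 0.103). By the step between low FPKM values these stand for about 4.36 fragments (95% Poisson interval 1.09 to 10.2) and 1.47 fragments (0.0253 to 5.57). The numbers are not whole, so the conversion by full transcript length is approximate, and the intervals were taken after rounding. The ratio of GFP+ to GFP- then has a counting interval from 0.00675 to 3.36, and a difference was not detectable at this depth. Lcn2 lies on chromosome 2 at 32384637 to 32387739, minus strand.

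Duox2 and Duoxa2 lie head to head on chromosome 2, with starts 735 bases apart by the listed loci. Duox2 (122280437 to 122298165, minus strand) was at 0.590 FPKM in GFP- cells (upper bound 1.61) and 0.447 FPKM in GFP+ cells (upper bound 1.22). It stayed below the 1 FPKM filter, with a log2 difference of -0.14 that became 0.04 and 0.09 under the other scalings. Duoxa2 (122298900 to 122302885, plus strand) was at 1.82 FPKM in GFP- cells (upper bound 5.06) and 0.308 FPKM in GFP+ cells (upper bound 0.886). Its FPKM was 5.89-fold lower in GFP+, a ratio close to that of Reg1, but its log2 difference on the FPKM + 1 scale was -1.11 because of its low level.

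In fragments, Duoxa2 stood at about 171 in GFP- and 29.4 in GFP+, so that the 5.89-fold ratio has a counting interval of 3.96 to 9.06. Duox2 stood at about 213 and 163, a GFP+ to GFP- ratio of 0.757 with an interval of 0.614 to 0.933. The intervals cover counting error only and not the spread between cultures or sorts, and the sign for Duoxa2 was fixed by the filter. Duoxa2 was 3.08 times Duox2 in the GFP- library, whereas Duox2 was 1.45 times Duoxa2 in the GFP+ library. With a pseudocount of 0.1 in place of 1, Duoxa2 also met the 4-fold rule, at -2.23.

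The end of Duoxa2 overlaps Duoxa1 on the opposite strand in the annotation, and 634 of its 1543 stretches of 50 bases (41.1%) lie in a Duoxa1 transcript. Without strand, reads from the overlap cannot be told apart, and the strand setting of the counting is not stated in the sources used here. Duoxa1 was listed at 0 in both libraries. Duox2 shares 415 of 6063 such stretches (6.84%) with its paralog Duox1, which was at 0.00314 FPKM in GFP- cells and 0.0220 FPKM in GFP+ cells.

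Nos2 (chromosome 11, 78920859 to 78960124, plus strand) was at 0.781 FPKM in GFP- cells (upper bound 2.18) and 1.06 FPKM in GFP+ cells (upper bound 3.03), a log2 difference of 0.21. It stood at about 193 and 267 fragments, a GFP+ to GFP- ratio of 1.36 with a counting interval of 1.13 to 1.65. The interval covers counting error only, and the sign was fixed by the filter. Pigr and Nos2 were the 2 genes of the group with the higher FPKM in GFP+.

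Of 19 genes of NADPH oxidases and peroxide use around Duox2 and Duoxa2, 8 were compared, of which 1 was at least 4-fold lower in GFP+ and 0 were higher. The median was -1.10, and -0.61 and -0.49 under the 2 other scalings, and 7 of the 8 had the lower value in GFP+ as deposited. Cyba, the membrane subunit that the NOX enzymes share, was at 191 FPKM in GFP- cells and 32.4 FPKM in GFP+ cells. The organizer Noxo1 was at 37.3 and 9.57 FPKM and the activator Noxa1 at 36.7 and 9.40 FPKM, while Nox1, the oxidase they serve, was at 0.941 and 0.329 FPKM. Pdia4, an endoplasmic reticulum disulphide isomerase listed in a row joined with Mir704, was at 172 and 79.0 FPKM. Duox2 at 0.590 FPKM and Nox1 were thus both low beside the oxidase subunits in the GFP- library.

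Genes of arginine and nitric oxide metabolism around Nos2 went in both directions. Of 14 genes 12 were compared, 3 were at least 4-fold higher and 1 lower, with a median of 0.17 that became 0.59 and 0.69 under the 2 other scalings. Gch1, which starts the synthesis of tetrahydrobiopterin, a cofactor of Nos2 and of serotonin synthesis, was at 18.0 FPKM in GFP- cells and 177 FPKM in GFP+ cells. Ass1, which recycles citrulline towards arginine, was at 0.784 and 10.3 FPKM and met the 1 FPKM filter by its GFP+ level alone, so its sign was fixed by the filter. Of the arginases, Arg1 was at 2.37 and 23.3 FPKM and Arg2 at 177 and 26.9 FPKM, so that the prevailing arginase transcript was Arg2 in both libraries, by a wide margin in GFP- and a small one in GFP+. The other synthases, Nos1 and Nos3, were at 0.390 FPKM or less.

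Of 11 genes of immunoglobulin transport and of iron or metal withholding around Pigr and Lcn2, 4 were compared, 2 were at least 4-fold higher and 1 lower, with a median of 1.70 (2.18 and 2.29 under the other scalings). Ltf, the iron-binding lactotransferrin, was at 0.724 FPKM in GFP- cells and 72.8 FPKM in GFP+ cells, where Lcn2 was at 0.0268 FPKM. Slc22a17, a receptor for Lcn2, was at 0.621 and 20.9 FPKM. Fcgrt, the receptor that carries immunoglobulin G, was at 18.3 and 2.80 FPKM, opposite in direction to Pigr, and the metal transporter Slc11a2 was at 25.4 and 19.4 FPKM. Ltf and Slc22a17 passed the filter only through GFP+, so their sign was fixed by it, and the median includes them. Fcgrt and Slc11a2, the remaining compared genes, had the lower value in GFP+ as deposited.

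Among 21 listed relatives of Lypd8 in the Ly6/uPAR family, 8 were compared, 2 were at least 4-fold higher and 0 lower, with a median of 1.82 (2.21 and 2.31 under the other scalings). Lypd6 was at 0.170 FPKM in GFP- cells and 18.4 FPKM in GFP+ cells, Ly6a at 9.42 and 66.4 FPKM, Cd59a, which blocks complement, at 0.287 and 4.02 FPKM, and Ly6e at 169 and 44.4 FPKM. Lypd8, at 536 FPKM or more, was above each of them in both libraries. Of the 8 compared relatives 4 (Lypd1, Lypd6, Ly6f and Cd59a) passed the filter only through GFP+, so their sign was fixed by it. The median includes them and is no measure of direction. The remaining compared relatives went both ways, Ly6a and Ly6g6d (0.15) above 0 and Ly6e and Plaur (-1.36) below.

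Several receptors are known to induce these genes. Of 27 cytokine and microbial receptors and adaptors, 20 were compared, 3 reached a 4-fold higher level in GFP+ and 0 a 4-fold lower one, with a median of 0.58 (1.02 and 1.13 under the other scalings). The 3 were Il17re, a receptor subunit for interleukin-17C, at 3.03 FPKM in GFP- cells and 120 FPKM in GFP+ cells, Il18r1 at 0.706 and 54.9 FPKM, and Il1r1 at 0.0703 and 19.0 FPKM. Il18r1 and Il1r1 passed the filter only through GFP+, so their sign was fixed by it. Ifngr2, of the interferon gamma receptor, was at 201 and 63.6 FPKM. Il22ra1, the specific subunit of the interleukin-22 receptor, was at 1.09 and 4.76 FPKM, while its partner Il10rb was at 64.7 FPKM in GFP- with a log2 difference of -0.11. Reg1 and the Reg3 genes had their lower FPKM in the library with the higher Il22ra1 value. A relation between these levels was not tested.

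All 22 signal transducers of these pathways were compared, 1 was at least 4-fold higher and 1 lower, with a median of 0.11 (0.56 and 0.67 under the other scalings). Socs1, a feedback inhibitor of JAK kinases, was at 2.26 FPKM in GFP- cells and 16.4 FPKM in GFP+ cells, and the kinase Jak1 at 23.8 and 94.5 FPKM. Stat3 was at 23.8 and 72.8 FPKM. The factors Cebpb, at 33.2 and 6.05 FPKM, and Cebpa, at 21.7 and 5.40 FPKM, had the lower value in GFP+. Il22ra1, Il10rb and Stat3, which belong to the known route to Reg3b and Reg3g, and Nox1 above were chosen after their values were seen.

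Of 39 other defence genes found in the files, 22 were compared, 7 met the 4-fold rule as lower in GFP+ and 2 as higher, with a median of -1.13 (-0.66 and -0.54 under the other scalings). Ang4, a bactericidal ribonuclease, was at 502 FPKM in GFP- cells and 27.8 FPKM in GFP+ cells, and the lectin Itln1 at 4969 and 309 FPKM. Pla2g2a, a bactericidal phospholipase, was at 36.2 and 2.72 FPKM, and the chemokine Ccl25 at 467 and 67.0 FPKM. The 2 higher genes, singled out after their values were seen, were Sprr1a, a cornified envelope protein, at 11.8 and 57.9 FPKM, and the protease inhibitor Slpi (in a row joined with Mir7678) at 0.0518 and 3.41 FPKM, which passed the filter only through GFP+. Ang4, Itln1 and Pla2g2a are also among the Paneth cell markers. Reg1, at 17.3% of its GFP- level in GFP+, was between Ang4 at 5.54% and Itln1 at 6.23% on the one side and the Reg3 genes at 31.4% to 52.2% on the other.

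**Figure D4:**
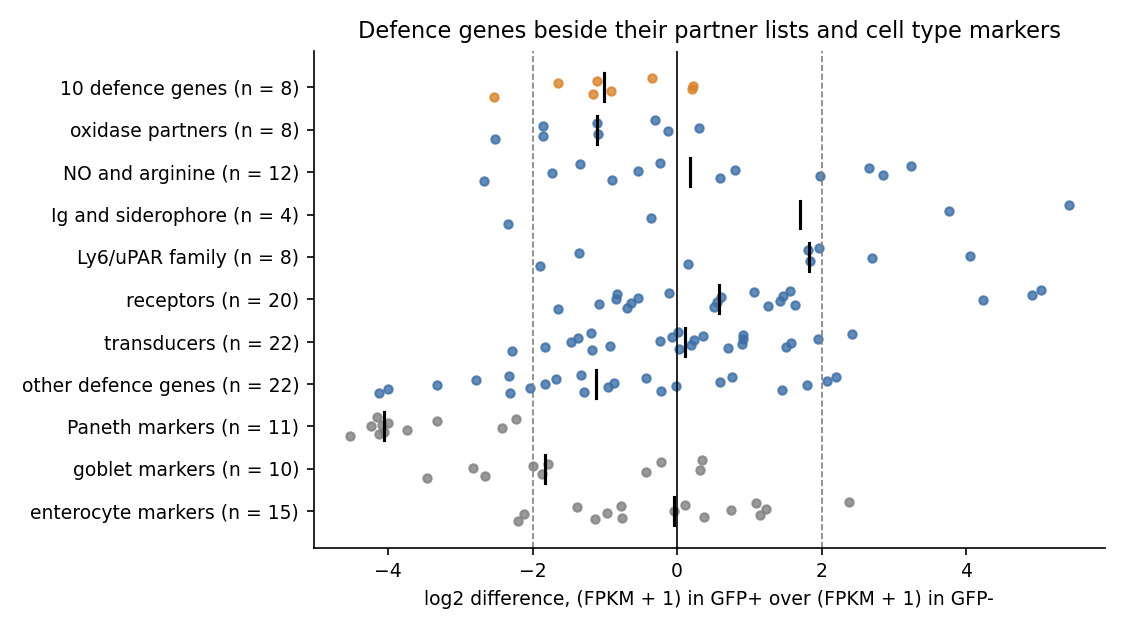
Log2 differences, (FPKM + 1) in GFP+ over (FPKM + 1) in GFP-, of the compared genes among the 10 (orange), in the partner lists (blue) and in 3 marker lists (grey). Each point is a gene, black bars are medians and dashed lines mark 4-fold. The medians of the defence genes and of the oxidase partners lie near -1, at -1.01 and -1.10, and all 11 Paneth markers lie beyond the lower 4-fold line with a median of -4.06.

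The libraries differed in the markers of other epithelial cell types. All 11 Paneth markers met the 4-fold rule as lower in GFP+, and their summed level was 18697 FPKM in GFP- cells and 1182 FPKM in GFP+ cells (6.32%). The stem and cycling markers summed to 1689 and 414 FPKM (24.5%) and the tuft markers to 28.1 and 6.42 FPKM (22.8%). Of the 7 compared tuft markers 6 were below 0, but 5 passed the filter only through GFP-, which fixed their sign. Dclk1 went the other way, at 1.31 and 2.58 FPKM. The goblet markers went apart: their sum was 3249 and 1373 FPKM (42.2%), with Spink4 at 1535 and 139 FPKM and Agr2 at 282 and 39.0 FPKM, but Tff3 at 1178 and 1008 FPKM and Fcgbp at 80.4 and 99.9 FPKM. The enterocyte markers also went both ways, 7 of 15 above 0 and 8 below, with a sum of 9015 and 4192 FPKM (46.5%) and a median of -0.04 that became 0.46 and 0.58 under the other scalings. Of the enteroendocrine markers with an estimate 13 of 13 were at least 4-fold higher, with sums of 217 and 6981 FPKM, in the direction that the label of the sort names. The 7 markers of all epithelial cells summed to 9997 and 5186 FPKM (51.9%), from Krt18 at 1592 and 459 FPKM and Krt8 at 2742 and 922 FPKM to Epcam at 991 and 795 FPKM and Cdh1 at 251 and 353 FPKM. Single markers named here were picked after their values were seen. In a bulk library, fewer cells of a type and less RNA per cell cannot be told apart.

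Set beside these sums, Reg1 at 17.3% lay between the Paneth sum (6.32%) and the tuft sum (22.8%). It was within the range of the single Paneth markers. The GFP+ to GFP- ratio was 0.173 for Reg1, 0.184 for Clps and 0.208 for Mmp7, and the other Paneth markers had lower ratios than Reg1. Single tuft markers also lay on both sides of Reg1. Reg3g, Reg3b and Reg3a, at 31.4%, 43.9% and 52.2%, lay between the stem and cycling sum and a value just above the sum of the markers of all epithelial cells (51.9%). Lypd8 at 78.2% and Pigr at 116% were above each of these sums except that of the enteroendocrine markers, which was far higher. Single goblet, enterocyte and general epithelial markers were as high as Lypd8 and Pigr. The part of the other cell types in these differences was not tested. Leukocyte markers summed to 2.55 and 10.6 FPKM over the 14 found, with 8 and 7 of them at 0 and Ptprc at 0.0224 FPKM in both. Of the 3 that were compared, Lyz2 met the 4-fold rule as higher, at 0.858 and 6.61 FPKM, Cd68 was at 0.595 and 2.71 FPKM and Itgam at 1.03 and 0.270 FPKM. Lyz2 in GFP+ was thus above Lcn2, Duox2, Duoxa2 and Nos2. Fibroblast and endothelial markers summed to 5.11 and 252 FPKM, most of it from Vim, with 3 and 1 of 9 at 0. All 4 that were compared had the higher value in GFP+: Vim at 4.90 and 237 FPKM and Pecam1 at 0.187 and 10.4 FPKM met the 4-fold rule, and Col1a1 was at 0.0106 and 1.56 FPKM and Col3a1 at 0.00593 and 1.61 FPKM. The fibroblast and endothelial markers not compared were Col1a2 (0.00322 and 0.889 FPKM), Dcn (0 and 0.401), Lum (0 and 0.0869), Cdh5 (0 and 0.00845) and Kdr (0.00606 and 0). Of the 7 compared leukocyte, fibroblast and endothelial genes, Itgam passed the filter only through GFP- and the others except Vim only through GFP+. The filter thus fixed the sign of each of them except Vim.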

How the data were processed

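Polyadenylated RNA of 1 GFP- and 1 GFP+ library was measured. The deposited values are FPKM with lower and upper confidence bounds, per the file headers. The submitters' processing notes name FastQC, TopHat2 0.7, Cufflinks, Cuffdiff and mm10. For the annotation, strand setting, library scaling and multiply mapping reads, the procedure is not stated in the sources used here.

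FPKM was summed per symbol (Python 3.11.15, pandas 2.3.3). The 5 GFP+ rows that Cuffdiff marked HIDATA were treated as not estimated. Genes that reached 1 FPKM in either library were compared on the log2(FPKM + 1) scale, which understates differences of low genes, with a 4-fold rule of size and no test. Fragment numbers were derived from the step of low FPKM values, with lengths from GENCODE M21. The step was set on transcripts longer than 3000 bases, so the numbers for shorter transcripts are approximate. They give intervals for counting error only. RefSeq promoter sequences were read from GRCm38.p6 with Biopython 1.88.

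All 10 members are named, with up to 4 genes of each partner list by absolute difference and the 3 genes nearest to Reg1 and to Pigr. Members and lists were chosen with earlier results of these data known. Alternatives changed the pseudocount, the minimum FPKM, the scaling and the fold.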

Additional observations from a re-analysis of the deposited data

How the results depend on the processing

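No replicate could be left out and no paired analysis was possible because each fraction is 1 library. The count of the 8 compared genes at least 4-fold lower in GFP+, 1 as reported (Reg1), was 2 with a pseudocount of 0.1 (Reg1 and Duoxa2), 0 with one total FPKM and 4 under a 2-fold rule (Reg1, Reg3b, Reg3g and Duoxa2). The sign of Duoxa2 was fixed by the filter. The count of higher genes was 0 under every alternative run. The median log2 difference, -1.01, was -0.61 with a pseudocount of 5, -0.64 with no minimum FPKM, -0.55 with the median ratio set to 0 and -0.43 with one total. Lypd8 turned from -0.35 to 0.15 and 0.27 under the 2 scalings, and Duox2 from -0.14 to 0.0378 and 0.0856, because all values of GFP+ are multiplied there. Reg1 missed the 4-fold rule with one total, at -1.91. Changing the minimum FPKM leaves a single gene's difference as it is. Of the 40 alternative values that could change in size, 34 kept their direction and their side of the 4-fold rule. This count is no measure of how stable the directions are. A change of pseudocount cannot turn a direction, and the 2 scalings raise GFP+ only, so they can turn only genes that were lower there. All 4 reversals came from the scalings, in Lypd8 and Duox2. Over all compared genes, 841 (7.09%) were higher and 545 (4.59%) lower as reported. With a pseudocount of 0.1 these were 1524 (12.8%) and 809 (6.82%), and with 5 they were 353 (2.97%) and 315 (2.65%). The median ratio set to 0 gave 1317 (10.8%) and 184 (1.51%), and one total gave 1448 (11.8%) and 133 (1.09%). Under a 2-fold rule 2380 (20.1%) were higher and 2743 (23.1%) lower. With no replicates, a difference between the sorted cells and one between these 2 preparations cannot be told apart. The files state no depth; the step between low values was 59.0 fragments per FPKM and kilobase in GFP- and 59.8 in GFP+, with 75.2% of 109 and 59.0% of 83 low values within 0.1 of a whole number, and it limits Lcn2 most.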
